A study of Homo sapiens with 6 samples.

Results

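The transcriptome of 786-O cells that carried a control hairpin was described gene by gene, as the resting state against which a knockdown in this line is read. The members are the 2 control libraries of 6 in the series, chosen by their label (shControl). 786-O is an established human line from a clear cell renal cell carcinoma, and the labels give its cell type as renal cell carcinoma and its tissue as kidney. All 6 libraries come from this line, grown in RPMI-1640 with fetal bovine serum and given no treatment before RNA was extracted. The 2 shControl libraries are labelled wild type. The 2 shRNA1 and 2 shRNA2 libraries each carry a short hairpin against LINC02068, a long noncoding RNA, are labelled LINC02068 knockdown, and were used only as a reference. The vector, the sequence of the control hairpin, the number of cell pools or clones, and whether replicates were separate cultures are not given in the labels, so p-values measure the spread between these samples, which may be technical.

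Clear cell renal cell carcinoma arises from the epithelium of the proximal tubule, and its usual founding lesion is loss of VHL, the substrate receptor of a ubiquitin ligase. In oxygenated cells prolyl hydroxylases (the EGLN enzymes) mark the alpha subunits of the hypoxia-inducible factors HIF-1 and HIF-2, and the VHL ligase destroys them. Without VHL the alpha subunits persist and, with their partner ARNT, hold hypoxia genes on in normal oxygen. 786-O is known as a VHL-deficient line that depends on HIF-2, whose alpha subunit is encoded by EPAS1, and as a line that lacks functional HIF-1 alpha protein.

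Levels are given as CPM (counts relative to the library size, which is scaled by TMM, a trimmed mean of ratios between libraries) when a gene is followed across libraries. Genes are compared with each other mainly as TPM (transcript abundance on a fixed total), which divide the counts by the gene's merged exon length in GENCODE 29. Where a ranking or a sum over genes is given in CPM, it is not corrected for length. A gene is called expressed at 1 CPM or more in both control libraries, scarce when it has counts below that in either, and without counts when both hold 0. The control libraries held 17266828 and 26277068 counts, so 1 CPM was worth 18.7 and 28.1 counts, and the hairpin libraries held 15376448 to 37311846. A count of 0 in both allows a level of up to 0.0642 CPM (3 counts over the group), and this limit covers counting error only.

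LINC02068 itself (chromosome 3, 172560888 to 172595607, minus strand, GRCh38) stood at the lower edge of the expressed class, at 1.07 and 1.14 CPM from 20 and 32 counts. It had 0.604 and 0.104 CPM in the shRNA1 libraries and 0.472 and 0.478 in the shRNA2 libraries, so the control libraries were the highest of the 6. The difference was 1.46 ± 0.59 (log2, SE; edgeR adjusted p = 0.0447), and the adjusted p ran from 0.00914 to 0.219 with 1 library left out, with 5 of the 6 omissions ending the call. It was 0.0506 with a replicate block and 0.107 with DESeq2.

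Of 60094 genes counted (chromosome Y genes and the X inactivation transcript left out), 13455 were expressed in control cells, 12043 were scarce and 34596 had no counts. Of the 19816 protein-coding genes 11830 (59.7%) were expressed and 4908 (24.8%) had no counts. They held 97.3% of all counts. Of 7458 lincRNA genes 351 were expressed, with 0.467% of counts, and of 10036 processed pseudogenes 286 were. Levels were uneven: 85 protein-coding genes at 1000 CPM or more held 18.2% of the counts, and 1893 genes between 100 and 1000 CPM held 46.7%. The 100 most abundant genes took 20.03% and 20.16% of the control libraries, against 22.9% to 23.1% of the hairpin libraries, so no control library reached the lowest hairpin library.

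The most abundant transcripts per length were those of mitochondria, ferritin, the actin cytoskeleton and glycolysis. MT-CO2, a subunit of cytochrome c oxidase, led at 15010 and 16283 TPM. FTL, the ferritin light chain that stores iron, was the most abundant nuclear transcript at 11627 and 11881 TPM, and its partner FTH1 had 4825 and 4816. TMSB10, an actin-binding thymosin, followed at 10041 and 10033 TPM, ahead of ACTB at 7594 and 7488. The control libraries gave these 5 genes in the same order, with the widest gap at MT-CO2.

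Below these came CD24 at 6308 ± 92 TPM (SD, n = 2), a glycosylated surface protein found on renal tubule progenitors and many carcinomas. GAPDH had 5127 ± 47 TPM and CTSD, the lysosomal protease cathepsin D, 5078 ± 54, although CTSD overlaps another gene on its strand and reads could be divided between them. VIM, the intermediate filament of mesenchymal and of clear cell carcinoma cells, reached 4206 ± 56 TPM. AKR1B1, the aldose reductase that makes sorbitol in the kidney, had 3860 ± 11, and DDIT4, an inhibitor of mTORC1 that is induced by hypoxia and by amino acid stress, had 3891 ± 59. The small mitochondrial genes MT-ATP8, MT-ND4L and the tRNAs MT-TC, MT-TN and MT-TY also enter the 30 leading genes, but they overlap or adjoin larger mitochondrial genes and TPM divides by their short lengths.

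**Figure D1:**
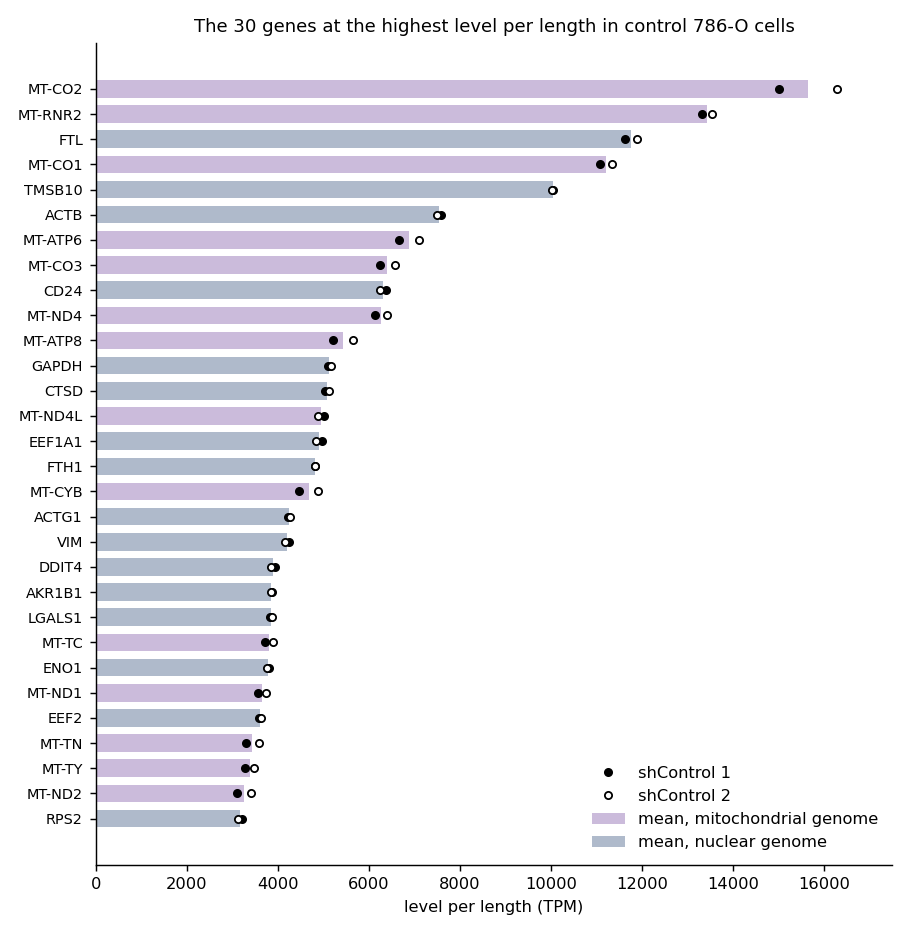
Level per length (TPM, linear axis from 0) of the 30 leading genes; bars are means of the 2 control libraries and points are the single libraries, with mitochondrial genes in violet and nuclear genes in blue. MT-CO2 leads at 15646 TPM and FTL leads the nuclear genes at 11754.

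Summed by programme, the 13 mitochondrial mRNAs made up 7.59% ± 0.30 of all TPM in control cells and 86 cytosolic ribosomal proteins 5.41%. The 27 glycolysis genes held 1.95%, the 19 genes of the antioxidant factor NRF2 1.93%, mostly through the ferritin chains, which alone held 1.66%. Genes of mesenchymal cells held 1.45%, the cytoplasmic actins 1.18% and the 34 matrix genes 1.14%. Lists can share members, as the NRF2 genes and the ferritin chains do, so these shares cannot be added. Matrix genes weigh more in reads than in molecules: they took 2.52% of counts, and FN1, which encodes fibronectin, was the most abundant nuclear transcript by CPM (9933 and 10066) while its TPM was 2437 ± 12 over 17315 bases of merged exon.

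The hairpin libraries give the scale on which these levels move. Of 16039 genes tested, 57.5% differed between control cells and the mean of both hairpins at an edgeR adjusted p under 0.05: 28.9% were higher in control cells and 28.6% lower. These shares are the background for every count below. When libraries were scaled by total counts instead of TMM, 6027 genes were higher in control cells and 3398 lower, so the share of calls that were higher rose from 50.3% to 63.9%. The median log2 difference of all genes was 0.03 with TMM and 0.18 with total counts. All log2 differences below are control minus hairpins with TMM, and those smaller than the gap between these medians can change sign with the scaling.

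Of the 30 leading transcripts 28 were lower in control cells than in the hairpin libraries, 1 (DDIT4) was higher and 1 (MT-CO1) was not called. With total counts 23 were lower and 2 higher, and EEF2, the translation elongation factor, moved from -0.14 to 0.01. ACTB had 6269 and 6309 CPM in control cells and 15332 to 15740 in the 4 hairpin libraries, a log2 difference of -1.30 ± 0.02 (SE; edgeR adjusted p = 1.0e-15). Both cytoplasmic actins, both ferritin chains, 12 of 13 mitochondrial mRNAs and 78 of 83 tested ribosomal proteins were lower, against the background of 28.6%. With total counts 71 ribosomal proteins and 10 mitochondrial mRNAs were lower and 4 and 1 higher. MT-CO1, which encodes the catalytic core of cytochrome c oxidase, stood at 4008 and 4189 CPM against 3992 to 4172, so the groups overlapped.

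The labelled lineage was checked first by the transcription factors of the developing and adult nephron. Of 34 listed genes 20 were expressed, 5 were scarce and 9 had no counts. PAX8, which specifies renal epithelium and is the diagnostic nuclear marker of renal carcinoma, had 305 and 307 CPM (chromosome 2, 113215997 to 113278950, minus strand) and 175 ± 2.0 TPM. PAX2, the earlier nephric PAX gene, had 23.3 and 24.7 CPM. Both had 33.5 CPM or more in every hairpin library.

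The list also holds ZNF395, a factor raised in clear cell carcinoma, which was its highest member at 384 ± 5.7 TPM. ZNF395 is counted with the list but is not read here as a marker of the nephron. POU3F3, which patterns the loop of Henle and distal nephron, had 75.1 ± 0.16 TPM, MAF, which acts in the proximal tubule, 51.6 ± 0.56 and SALL1, a factor of nephron progenitors, 33.0 ± 0.79. WT1, the factor of podocytes and of early nephrons, was low at 9.27 and 9.23 CPM. Among the 9 without counts was HNF4A, a hepatocyte nuclear factor that drives the mature proximal tubule programme. So were EMX2, SIX2, IRX1, IRX2, TFAP2B, TFCP2L1 and FOXI1, the last of these the factor of intercalated cells.

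Of 22 lineage factors tested 6 were higher in control cells, 8 lower and 8 not called, with a median log2 difference of 0.02 beside 0.03 for all genes. PAX8 differed by -0.10 ± 0.03 (edgeR adjusted p = 0.0131), a call that turned to 0.06 (adjusted p = 0.11) with total counts and was lost without either control library (highest adjusted p 0.105). ZNF395 was higher in control cells, at 529 and 529 CPM against 286 to 315.

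The proximal tubule, the segment of origin, was represented by a minority of its functional genes. Of 39 genes 15 were expressed, 13 were scarce and 11 had no counts, and the median level was 0.404 TPM. The highest 4 were surface proteins: HAVCR1 (the kidney injury molecule, which damaged tubules display) had 279 ± 3.5 TPM, the brush border peptidases ANPEP and DPP4 had 230 ± 1.8 and 182 ± 0.57, and the adhesion receptor VCAM1 had 224 ± 0.50. ASS1, which makes argininosuccinate in the arginine pathway, had 73.3 ± 1.2 TPM, and DAB2, the endocytic adaptor of the tubule, 69.0 ± 1.5.

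Many genes of reabsorption were near or at 0, but SLC4A4, a bicarbonate carrier, was expressed at a mean of 57.6 CPM. LRP2 (megalin), the large endocytic receptor of the brush border, had no counts in any of the 6 libraries, and its partner CUBN (cubilin) had 1.5 and 1.03 CPM. The water channel AQP1 had 0.965 and 0.570 CPM. The organic anion carriers SLC22A6, SLC22A8 and SLC22A12 had no counts, the phosphate carrier SLC34A1 had 0 and 6 counts, and the glucose carrier SLC5A2 stood at 2.04 and 2.42 CPM. The gluconeogenic enzymes FBP1 and G6PC1 had no counts, and PCK1 had 0 and 5 counts. GGT1 is uncertain, at 53.4 and 78.2 CPM, because SNRPD3 overlaps it on the same strand.

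Of 23 proximal tubule genes tested 6 were higher in control cells and 4 lower. VCAM1 had 318 and 323 CPM in control cells and 125 to 139 in the hairpin libraries (1.28 ± 0.03, SE; edgeR adjusted p = 6.9e-14). HAVCR1 had 142 and 143 CPM against 164 to 174 (-0.24 ± 0.04; edgeR adjusted p = 7.4e-05), and that call and the one of ANPEP were lost with total counts. DPP4 did not pass the test, with 214 and 218 CPM against 205 to 218.

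Genes of other nephron segments were mostly silent. Of 24 such genes 4 were expressed, 7 scarce and 13 without counts. Uromodulin (UMOD) of the thick limb, AQP2 of the collecting duct, and the podocyte slit protein NPHS1 had no counts. The exceptions were SYNPO (synaptopodin), an actin-bundling protein that is not limited to podocytes, at 756 and 799 CPM, the sodium channel subunit SCNN1A at 19.8 and 18.4, PODXL at 8.73 and 9.48, and PLA2R1, the phospholipase A2 receptor of podocytes, at 1.98 and 1.32.

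**Figure D2:**
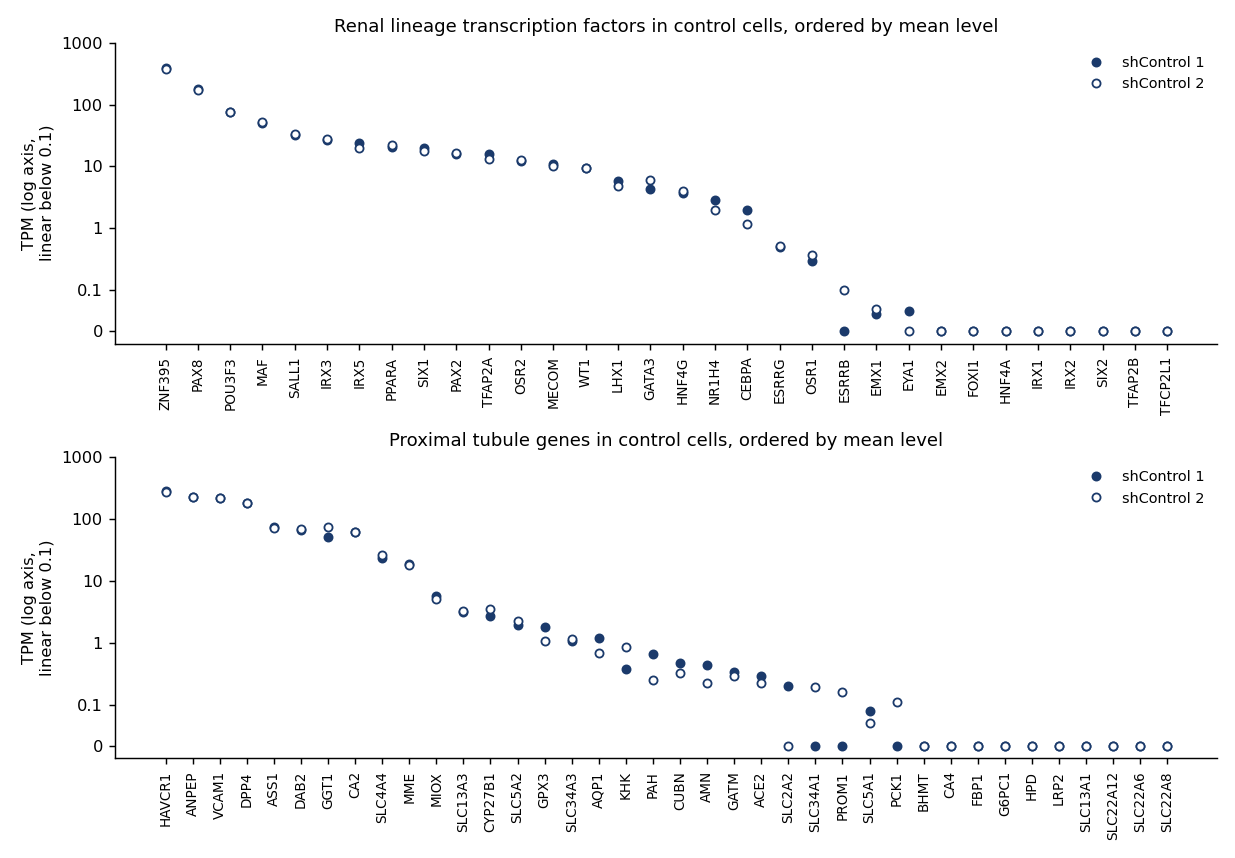
TPM in both control libraries (filled and open points; log axis, linear below 0.1) for renal lineage factors and proximal tubule genes, each ordered by mean. PAX8 sits at 175 TPM and HNF4A at 0, while HAVCR1, ANPEP, VCAM1 and DPP4 lie between 182 and 279 and LRP2 at 0.

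Markers of other cell types were mostly absent. Endothelial markers summed to 7.77 and 7.80 CPM over 10 genes, of which only TIE1 was expressed (5.57 and 5.99 CPM), while CDH5, VWF, ERG and EMCN had no counts. Of 12 leukocyte markers 9 had no counts, among them PTPRC (CD45), and their sum of 42.4 to 45.5 CPM came mainly from CD68, a lysosomal protein. CSF1R, the receptor of the macrophage growth factor, was also expressed, at 5.95 and 5.10 CPM against 1.21 to 1.78 in the hairpin libraries (1.88 ± 0.23, SE; edgeR adjusted p = 5.0e-06). Of 8 fibroblast markers 4, among them DCN and FAP, had no counts, 2 were scarce, and LUM (8.52 and 8.41 CPM) and COL1A1 (3.54 and 4.92) were expressed. LUM, a matrix proteoglycan, was higher in control cells (0.72 ± 0.17, SE; edgeR adjusted p = 0.0016). Of 7 erythroid and liver markers 6, among them HBB and ALB, had none. Of 8 neuronal markers 3 were expressed, led by the neurofilament NEFL at 57.4 and 59.8 CPM. NEFL was lower in control cells (log2 difference -1.58, edgeR adjusted p = 1.6e-13). The neuronal markers summed to 64.6 to 68.0 CPM in control cells and to 176 to 182 in the hairpin libraries. Of 4 tested 1 was higher in control cells and 1 lower. Of 8 pericyte and smooth muscle markers 5 were expressed, led by MCAM at 146 and 137 CPM, while NOTCH3 had no counts. Of 6 tested 2 were higher in control cells and 2 lower.

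The oxygen-sensing machinery was present. EPAS1 (HIF-2 alpha; chromosome 2, 46293667 to 46386703, plus strand) had 541 and 558 CPM, and HIF1A (chromosome 14, 61695513 to 61748259, plus strand) 412 and 409 CPM. Per length they were close, at 318 ± 2.5 and 336 ± 6.3 TPM. The line is known for lacking HIF-1 alpha protein, and the counts do not tell a full transcript from a truncated one. HIF3A had no counts. ARNT, the shared beta subunit, had 32.4 ± 1.5 TPM, and ARNT2 6.91 ± 0.74. CITED2, a HIF target that competes with HIF for the coactivator p300, had 1066 ± 11 TPM.

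VHL RNA was present at 81.0 and 85.7 CPM (83.4 ± 2.1 TPM; chromosome 3, 10141008 to 10152220, plus strand), and counts do not show whether the message encodes a working protein. All 5 subunits of its ligase were expressed, from 35.02 ± 2.2 TPM for RBX1, the RING subunit, to 330 ± 0.27 for ELOB (elongin B). All 5 oxygen sensors were expressed too. EGLN1, the main prolyl hydroxylase, had 59.4 ± 2.3 TPM, EGLN3, itself a HIF target, 41.9 ± 0.90, HIF1AN, the asparaginyl hydroxylase FIH, 23.3 ± 0.98 and EGLN2 20.8 ± 0.14. EGLN3 overlaps SPTSSA on its strand, and P4HTM overlaps WDR6, so their counts are less certain.

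EPAS1 was higher in control cells than with either hairpin: 541 and 558 CPM against 280, 282, 283 and 282, a log2 difference of 0.96 ± 0.03 (SE; edgeR adjusted p = 3.6e-13). The control libraries stood far above all 4 others. HIF1A had 412 and 409 CPM against 416 to 464 (-0.09 ± 0.03; edgeR adjusted p = 0.0368), and this difference turned to 0.07 (adjusted p = 0.0949) with total counts and lost its call without 1 of 4 libraries in turn (shRNA1 replicate 1, shRNA2 replicate 1 and each control; highest adjusted p 0.199). VHL was modestly higher in control cells (0.39 ± 0.06), with 61.4 to 65.8 CPM in the hairpin libraries, while RBX1 (-1.23 ± 0.07) and ELOB (-0.75 ± 0.04) were lower.

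Targets that are tied more to HIF-2 were abundant. Of 20 such genes 18 were expressed, and their median was 323 TPM. IGFBP3, a binding protein of insulin-like growth factors, led with 1537 ± 14 TPM. CCND1 (cyclin D1), the cell cycle target of HIF-2 in renal carcinoma, had 1279 ± 3.0, and the amino acid carrier SLC7A5 1054 ± 6.3. VEGFA, the angiogenic ligand, had 391 ± 1.2 TPM, STC2 254 ± 4.9, PLIN2, the coat of lipid droplets, 218 ± 2.1 and TGFA, a ligand of the EGF receptor, 201 ± 7.7. The list was not uniformly on: EPO had 1.29 and 1.18 CPM, NDUFA4L2 0.429 and 0.820, and the chemokine receptor CXCR4 2 counts in each library.

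The same list stood well above its hairpin level. Its members summed to 10743 and 10910 CPM in control cells and to 4799 to 4870 in the hairpin libraries. Of 18 tested 15 were higher in control cells, none lower and 3 not called (EPO, POU5F1 and PLIN2), against a background of 28.9% higher, and the median log2 difference was 0.98 beside 0.03 for all genes. SLC7A5 and STC2 are also on the list of the amino acid stress response under ATF4 given below, so these lists are not independent. VEGFA had 1327 and 1349 CPM against 246 to 260 (2.42 ± 0.03, SE; edgeR adjusted p = 1.3e-17). CCND1 had 1446 and 1481 against 527 to 542 (1.45 ± 0.03; edgeR adjusted p = 1.4e-15). No hairpin library came near the control level of either gene. The calls of ANGPTL4 and MMP14 were lost without shControl 1 (adjusted p = 0.128) and without shControl 2 (adjusted p = 0.0757), respectively.

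Targets tied more to HIF-1, most of them glycolytic, were also abundant but did not share that direction. Of 18 genes 17 were expressed. They summed to 13383 and 13827 CPM in control cells and to 21947 to 22741 in the hairpin libraries. Of 17 tested 5 were higher in control cells and 9 lower, with a median of -0.41. LDHA, which makes lactate, had 1495 and 1532 CPM against 2994 to 3055 (-0.99 ± 0.02, SE; edgeR adjusted p = 5.9e-14). PFKFB3, which makes the activator of phosphofructokinase, had 187 and 184 against 435 to 446. In the other direction HK2, the inducible hexokinase, had 223 and 230 against 84.2 to 93.1, and MXI1, a MYC antagonist, 58.0 and 64.3 against 20.1 to 25. The other 3 higher members were PDK1, P4HA1 and P4HA2, and the PDK1 call was lost without shControl 1 (adjusted p = 0.150).

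CA9, the cell surface carbonic anhydrase used as the diagnostic HIF marker of clear cell carcinoma, was expressed at a modest level. It had 16.2 and 16.4 CPM (41.2 ± 0.32 TPM) in control cells and 15.7 to 20.8 CPM in the hairpin libraries, a log2 difference of -0.14 ± 0.12 (edgeR adjusted p = 0.352), and its span overlaps ARHGEF39 on the other strand. CA12, a related enzyme, had 81.5 ± 2.5 TPM. Among 28 markers of clear cell carcinoma 20 were expressed, 7 scarce and 1 (FABP7) without counts. Besides genes named above, NNMT, the nicotinamide methyltransferase of this tumour, had 461 ± 24 TPM, CAV1 749 ± 9.9 and the TNF family ligand CD70 659 ± 0.79. ENPP3, SLC6A3 and FABP6 were scarce, at up to 0.214 CPM.

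**Figure D3:**
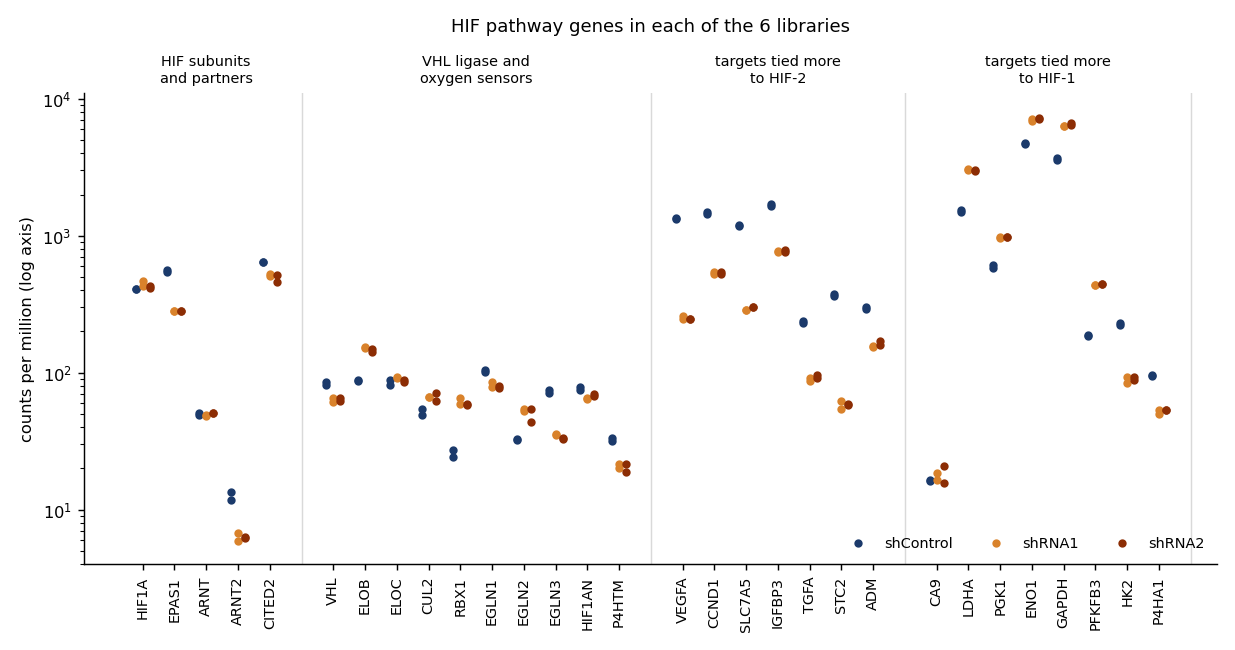
CPM (log axis) of HIF pathway genes in each library, with 2 points for each group: shControl in blue, shRNA1 in orange and shRNA2 in brown. Of the 20 targets tied more to HIF-2, 7 that were called higher in control cells are plotted. EPO, POU5F1 and PLIN2, which were not called, are not plotted. The 7 plotted ones have both control points above the 4 hairpin points, as EPAS1 does at 541 and 558 against 280 to 283. LDHA, PGK1, ENO1, GAPDH and PFKFB3 have them below.

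The letters ACGTG on either strand, a common form of the core of the HIF response element, were counted in the 250 bases before the RefSeq start (GRCh38.p14). They were present in 20.8% of 15140 protein-coding promoters, in 9 of 18 genes tied more to HIF-1 (50%) and in 7 of 14 tied more to HIF-2 with an entry (50%). The other common form of the core, GCGTG, was present in 39.4% of all these promoters, in 7 of the 18 (38.9%) and in 7 of the 14 (50%). Both lists were drawn up from known targets, so this is a description of them. The CA9 and LDHA promoters are shown because both genes are classic HIF targets and their levels differ widely: CA9 holds 1 match, 18 bases before the start, and LDHA 5, since a palindrome CACGTG counts once on each strand. Capitals mark the matches, in sequences that read 5′ to 3′.
CA9, chr9:35673678-35673927, plus strand: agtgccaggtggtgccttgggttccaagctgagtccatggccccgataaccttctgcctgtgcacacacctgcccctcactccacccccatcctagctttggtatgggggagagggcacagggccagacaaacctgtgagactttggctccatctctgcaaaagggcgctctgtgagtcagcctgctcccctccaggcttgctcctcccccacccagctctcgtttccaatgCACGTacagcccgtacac
LDHA, chr11:18394313-18394562, plus strand: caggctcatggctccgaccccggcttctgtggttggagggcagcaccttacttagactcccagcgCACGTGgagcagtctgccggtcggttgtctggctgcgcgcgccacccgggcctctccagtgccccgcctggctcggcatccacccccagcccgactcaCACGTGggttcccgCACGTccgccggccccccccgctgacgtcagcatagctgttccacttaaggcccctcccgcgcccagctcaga
LDHA stood at 1028 ± 3.1 TPM and CA9 at 41.2 ± 0.32, and a match is a description of the letters, not a bound site. EPO, EGLN3, STC2 and TGFA have no ACGTG in this window, although STC2 holds GCGTG 3 times, and no sequence farther away was searched.

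Most suppressors and drivers of clear cell carcinoma were expressed. Of 26 such genes 23 were expressed, and the others were CDKN2A, CDKN2B and FHIT. FHIT, a gene of chromosome 3p, was scarce at 0.536 and 1.21 CPM. The chromosome 3p genes BAP1 (a deubiquitinase), SETD2 (the histone H3 lysine 36 methyltransferase) and PBRM1 (a chromatin remodelling subunit) had 114 ± 0.40, 34 ± 1.5 and 24.5 ± 1.0 TPM. RB1 RNA was present at 42.6 ± 0.075 TPM, and mutated messages are counted here like intact ones. CDKN1A, the p21 inhibitor of cyclin kinases, had 286 ± 6.7 TPM and 208 and 206 CPM, against 59.7 to 70.6 CPM in the hairpin libraries (1.64 ± 0.05, SE; edgeR adjusted p = 3.1e-12). Of 24 tested 11 were higher in control cells and 9 lower, with a median of 0.18, and with total counts 12 and 6.

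CDKN2A and CDKN2B, which encode inhibitors of CDK4 and CDK6, lie at chromosome 9p21. CDKN2A (21967753 to 21995301, minus strand) had 0 and 2 counts in the control libraries and 0 in all 4 hairpin libraries. CDKN2B and the antisense transcript CDKN2B-AS1 had 0 counts in all 6. The genes on either side were expressed: MTAP, the methylthioadenosine phosphorylase, had 62.9 and 62.9 CPM, and DMRTA1 36.3 and 37.3. The end of MTAP and the start of DMRTA1 are 509 kb apart, and the 3 genes between them had 2 counts in all.

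Within 3 Mb of CDKN2A 36 genes were annotated, of which 10 were expressed, 7 scarce and 19 without counts. The interferon cluster next to MTAP accounted for many of the silent ones: 13 of 14 IFNA and IFNW genes had no counts, and IFNA1 had 2 counts. KLHL9, an adaptor of a ubiquitin ligase that lies inside that cluster, was expressed at 27.5 and 30.2 CPM. Farther out RPS6, a ribosomal protein, had 1052 and 1039 CPM and PLIN2 262 and 264. Counts of RNA cannot tell a deleted gene from a silent one, and no DNA measurement was used here.

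**Figure D4:**
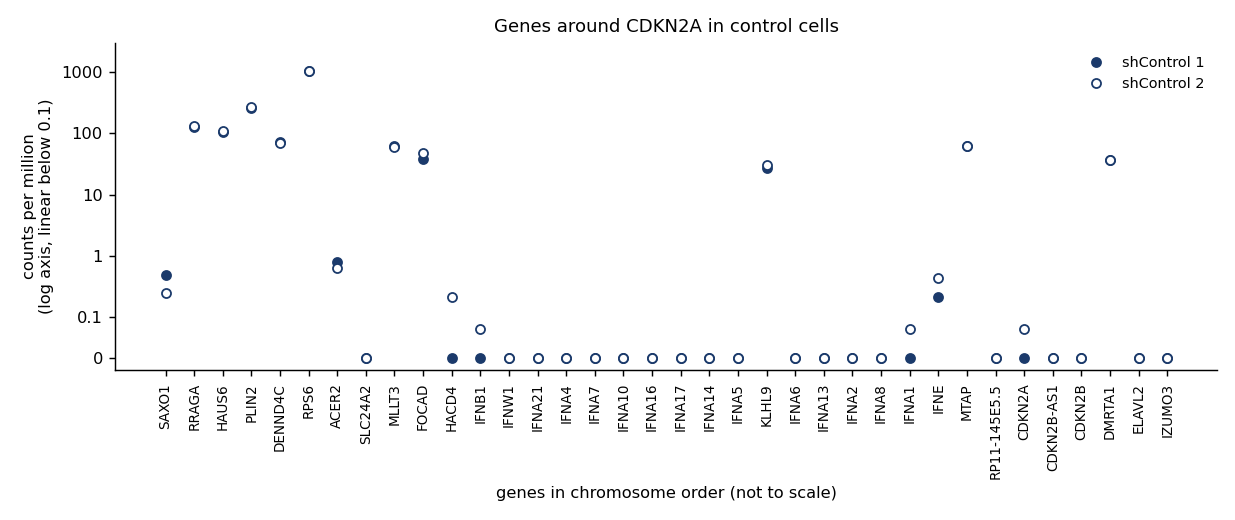
CPM (log axis, linear below 0.1) of 36 genes within 3 Mb of CDKN2A in chromosome order, not to scale, in both control libraries. MTAP at 62.9 and DMRTA1 at 36.8 CPM flank CDKN2A, CDKN2B and CDKN2B-AS1, which lie at or near 0, and KLHL9 stands alone at 28.9 among the interferon genes.

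In adhesion and cytoskeleton the control cells were mixed, with mesenchymal cadherins beside epithelial keratins. CDH1 (E-cadherin) was scarce at 0.107 and 0.748 CPM, whereas CDH2 (N-cadherin) had 314 ± 3.6 TPM and CDH6 (K-cadherin), the cadherin of the proximal tubule lineage, 96.7 ± 3.0. The simple-epithelium keratins KRT8, KRT19 and KRT18 had 509 ± 8.0, 351 ± 2.0 and 258 ± 5.9 TPM, KRT8 and KRT18 overlapping on opposite strands. Of 20 epithelial genes 12 were expressed. They summed to 1897 to 1900 CPM in control cells and to 2893 to 2973 in the hairpin libraries. Of 13 tested 5 were higher in control cells and 5 lower. KRT8 and KRT19 were lower (log2 differences -0.90 and -1.11) and CLDN1 was higher (2.34). Of the factors that maintain epithelial splicing and junctions ESRP1, GRHL2, OVOL1 and OVOL2 had no counts, while ESRP2 had counts. The junction genes CLDN1, TJP1, CLDN7 and CLDN4 were expressed, at means of 211, 104, 11.6 and 4.79 CPM. OCLN was scarce and CLDN3 had no counts.

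Of 19 mesenchymal genes 16 were expressed. The repressors of E-cadherin were present at moderate levels, with SNAI1 at 139 ± 7.8 TPM, SNAI2 at 83.2 ± 0.12, ZEB1 at 13.0 ± 0.58 and ZEB2 at 6.98 ± 0.51. TWIST1, TWIST2 and PRRX1 had no counts. TGFBI, a matrix protein induced by TGF-beta, had 1446 ± 21 TPM and ITGB1, the beta-1 integrin, 958 ± 22. Against the hairpin libraries 9 of 16 were higher in control cells and 4 lower. SNAI2 had 66.1 and 67.6 CPM against 22.5 to 27.1 (1.46 ± 0.07, SE; edgeR adjusted p = 1.2e-10), while SNAI1 had 57.1 and 53.8 against 75.9 to 78.7.

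Of 34 matrix genes 30 were expressed. FN1 led, followed by CCN1, a matricellular protein and target of YAP, with 2309 ± 40 TPM, and the laminins LAMB1 and LAMC1 had 345 ± 0.41 and 326 ± 3.1. COL6A3 and COL7A1 had 224 ± 3.6 and 285 ± 5.4 TPM, and the basement membrane collagens COL4A1 and COL4A2 45.3 ± 0.88 and 66.2 ± 0.29. The fibrillar collagens of fibroblasts were near absent: COL1A1 had 3.54 and 4.92 CPM, COL3A1 1.82 and 0.534, and COL1A2 no counts. Of 32 tested 18 were higher in control cells, 3 lower and 11 not called, with a median of 0.26, and with total counts 23 were higher and 2 lower. CCN1 was among the 3 lower genes with TMM (-0.08) and turned to 0.08 with total counts, and its call was lost without either control library. LAMB1 had 659 and 673 CPM against 319 to 327.

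Glycolysis genes were abundant, while FBP1 and G6PC1 of gluconeogenesis had no counts. Of 27 glycolysis genes 21 were expressed, among them HK2 at 157 ± 1.1 TPM, PFKP at 1035 ± 6.6 TPM, ENO1 at 3789 ± 22, PKM at 1905 ± 15 and LDHA. SLC2A1 (GLUT1), the glucose carrier, had 1329 ± 20 TPM. ALDOA is uncertain at 999 and 1198 CPM, since another gene overlaps it on its strand and its 2 control values lie apart. The tissue-restricted isoforms HK3, ALDOC, PGAM2 and PKLR were scarce or without counts. Others were expressed: ENO2, ENO3 and PFKM had means of 55.2, 4.84 and 53.9 CPM.

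Of 21 glycolysis genes tested 6 were higher in control cells and 15 lower. SLC2A1 was among the higher ones, with 1457 and 1519 CPM against 665 to 690 (1.14 ± 0.03, SE; edgeR adjusted p = 2.3e-14). PGAM1, the phosphoglycerate mutase, had 536 and 541 against 1463 to 1527. PKM had 3851 and 3888 against 7496 to 7968. Of the 9 genes tied more to HIF-1 that were lower in control cells 7 are also on the glycolysis list, so the 2 lists are not independent.

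FBP1, the gluconeogenic enzyme that is lost in clear cell carcinoma, had no counts in any library, and neither did FBP2 or G6PC1. Other genes of the pathway were expressed. PC, the pyruvate carboxylase, had 144 and 144 CPM against 112 to 121 in the hairpin libraries (0.31 ± 0.04, SE; edgeR adjusted p = 1.1e-05). The mitochondrial PCK2 had 295 and 291 CPM against 53.4 to 57.9 in the hairpin libraries (2.40 ± 0.04, SE; edgeR adjusted p = 1.5e-15). Of the urea cycle CPS1, the carbamoyl phosphate synthetase, had 47.8 and 46.5 CPM, ASS1 53.1 and 52.9, ASL 43.4 and 38.7 and ARG2, the mitochondrial arginase, 58.4 and 55.3, while OTC had no counts and ARG1 1 count.

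Lipid genes were expressed in 17 of 22 cases. SCD, the stearoyl-CoA desaturase, led with 1282 ± 4.3 TPM, followed by the droplet proteins PLIN3 at 330 ± 8.9, G0S2 at 274 ± 6.7 and PLIN2. CPT1A, the carnitine acyltransferase through which fatty acids enter mitochondria, was scarce at 0.804 and 0.677 CPM, and CD36 and FABP4 were at or near 0. FASN, the fatty acid synthase, had 219 and 230 CPM against 763 to 820 in the hairpin libraries (-1.80 ± 0.04, SE; edgeR adjusted p = 6.5e-15). Over the list 6 were higher in control cells and 7 lower of 19 tested.

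Genes of the amino acid stress response under ATF4 had the highest median difference of all lists. Of 21 genes 19 were expressed, and their sum was 6913 and 6962 CPM against 2087 to 2105. Of 19 tested 18 were higher in control cells, none lower and 1 (VLDLR) not called, with a median of 1.95 and the same counts with total counts. ATF4, the factor itself, had 405 and 413 CPM against 199 to 222 (0.97 ± 0.04, SE; edgeR adjusted p = 2.0e-10). ASNS, the asparagine synthetase, had 210 and 209 against 16.7 to 20.3 (3.48 ± 0.06), although another gene overlaps it on its strand. CHAC1, which degrades glutathione, had 114 and 118 against 9.37 to 11.3, and SLC7A11, the cystine carrier, which is also on the NRF2 list, had 189 and 179 against 14.8 to 15.8 (3.59 ± 0.05; edgeR adjusted p = 2.5e-16).

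The first enzyme of serine synthesis was near 0. PHGDH, which begins serine synthesis from a glycolytic intermediate, had 1 and 0 counts in the control libraries and 0 in all others. The next enzymes were well expressed: PSAT1, the aminotransferase, had 507 ± 0.092 TPM and PSPH, the phosphatase, 148 ± 1.2. SHMT2 and MTHFD2, which pass serine carbon to folate in mitochondria, had 317 ± 14 and 192 ± 1.1. PSAT1 was also higher in control cells, at 260 and 265 CPM against 72.6 to 83.3. The promoters of the silent and the expressed enzyme are shown because the enzymes are neighbours in the pathway and differ most in level. RefSeq (GRCh38.p14) gives 250 bases before the start with 30 CpG dinucleotides for PSAT1 and 11 for PHGDH, and capitals mark each CG.
PSAT1, chr9:78296875-78297124, plus strand: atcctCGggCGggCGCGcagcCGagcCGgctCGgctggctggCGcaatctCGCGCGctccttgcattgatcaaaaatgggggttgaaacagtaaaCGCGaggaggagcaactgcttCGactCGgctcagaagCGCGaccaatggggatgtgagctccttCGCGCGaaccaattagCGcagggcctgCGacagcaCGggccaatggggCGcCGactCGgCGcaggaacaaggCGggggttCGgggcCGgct
PHGDH, chr1:119711684-119711933, plus strand: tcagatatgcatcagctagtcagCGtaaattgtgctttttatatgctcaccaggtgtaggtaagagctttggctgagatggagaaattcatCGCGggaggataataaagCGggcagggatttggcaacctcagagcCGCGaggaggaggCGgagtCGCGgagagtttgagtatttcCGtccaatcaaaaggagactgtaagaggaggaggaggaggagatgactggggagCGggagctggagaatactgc
The PHGDH window lies inside the merged GENCODE 29 span of the gene, which begins farther upstream at 119648411. Methylation was not measured here.

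Antioxidant genes were high but lower than in the hairpin libraries. Of 19 NRF2 genes 18 were expressed, among them the ferritin chains, TXN, thioredoxin, at 465 ± 27 TPM and NQO1, the quinone reductase, at 348 ± 0.65. Of 19 tested 5 were higher in control cells, 13 lower and 1 not called, with a median of -0.57. HMOX1, the haem oxygenase, had 126 and 132 CPM against 609 to 627 (-2.26 ± 0.03, SE; edgeR adjusted p = 2.5e-16), and AKR1C3, an aldo-keto reductase, 58.9 and 57.4 against 195 to 210. The higher members included SLC7A11, TXNRD1 and the glutathione synthesis genes GCLC and GCLM.

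All 20 proliferation genes were expressed. MKI67, the marker of cycling cells, had 111 ± 0.93 TPM, TOP2A, topoisomerase II, 249 ± 7.5 and PCNA, the replication clamp, 167 ± 9.9. Of 20 tested 5 were higher in control cells and 13 lower, with a median of -0.58. The replication genes MCM2 (84.0 and 83.9 CPM against 174 to 180), PCNA (55.2 and 61.3 against 121 to 126) and RRM2 (46.9 and 56.5 against 136 to 149) were lower, and TOP2A, CDK1 and AURKB were higher, but MKI67 and CCNB1 were lower. PLK1 differed by -0.14 ± 0.04 with TMM and by 0.02 with total counts, and its call was lost without shControl 2 (adjusted p = 0.0712).

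Of 26 receptor kinases and drug targets 17 were expressed. AXL had 768 ± 7.6 TPM, EPHA2 586 ± 3.3, MET, the hepatocyte growth factor receptor, 392 ± 5.3 and EGFR 266 ± 8.9. FLT1, FLT4, RET, KIT and ALK had no counts, and KDR, the main VEGF receptor, was scarce at 0.911 and 0.392 CPM. AXL had 935 and 941 CPM against 509 to 540 in the hairpin libraries (0.85 ± 0.03, SE; edgeR adjusted p = 1.5e-12). Of 17 tested 6 were higher in control cells and 6 lower.

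Of 22 immune-facing genes 18 were expressed. B2M, the light chain of class I molecules, had 351 ± 2.3 TPM, while the class II genes HLA-DRA and HLA-DRB1 were at or near 0. The death ligand TNFSF10 (TRAIL) had 577 ± 16 TPM and lies at 172505508 to 172523507 on chromosome 3, beside LINC02068. CD274 (PD-L1) had 16.6 and 15.5 CPM against 3.36 to 4.13 (2.06 ± 0.15, SE; edgeR adjusted p = 7.6e-09). Of 19 tested 11 were higher in control cells and 2 lower. HLA-B and HLA-C overlap in the annotation and are close in sequence, so their counts are uncertain.

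Of 24 cytokine genes 13 were expressed. CSF1, the macrophage growth factor, led with 453 ± 9.6 TPM and did not differ by the test (edgeR adjusted p = 0.590). IL6 had 255 ± 6.8 TPM and IL11, its relative, 252 ± 3.4. IL11 had 159 and 160 CPM against 17.5 to 22.2 (2.96 ± 0.07, SE; edgeR adjusted p = 9.1e-13), and IL6 126 and 124 against 41.5 to 44.6. The T cell attractants CXCL10 and CCL5 and the stromal chemokine CXCL12 had no more than 3 counts. Of 15 tested 10 were higher in control cells and 2 lower, with a median of 0.60.

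HOX genes, which set axial position in the embryo, were broadly expressed. Of 39 HOX genes 32 were expressed. All 11 HOXA genes were expressed (429 TPM in sum), as were 8 of 10 in HOXB (242 TPM), 6 of 9 in HOXC (67.5 TPM) and 7 of 9 in HOXD (83.6 TPM). HOXA3 and HOXB9 led at 105 ± 1.5 and 104 ± 3.0 TPM, HOXA4 followed at 72.8 ± 6.2 and HOXA9 at 72.1 ± 5.6. Of the genes at the cluster ends HOXB1, HOXC12, HOXC13, HOXD12 and HOXD13 had no counts, while HOXA13 was expressed at 5.84 and 4.67 CPM. HOX genes overlap their neighbours on the same strand and antisense genes on the other, so single values are uncertain. Against the hairpin libraries 6 of 34 were higher in control cells, 13 lower and 15 not called, and with total counts 10 were higher and 7 lower.

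**Figure D5:**
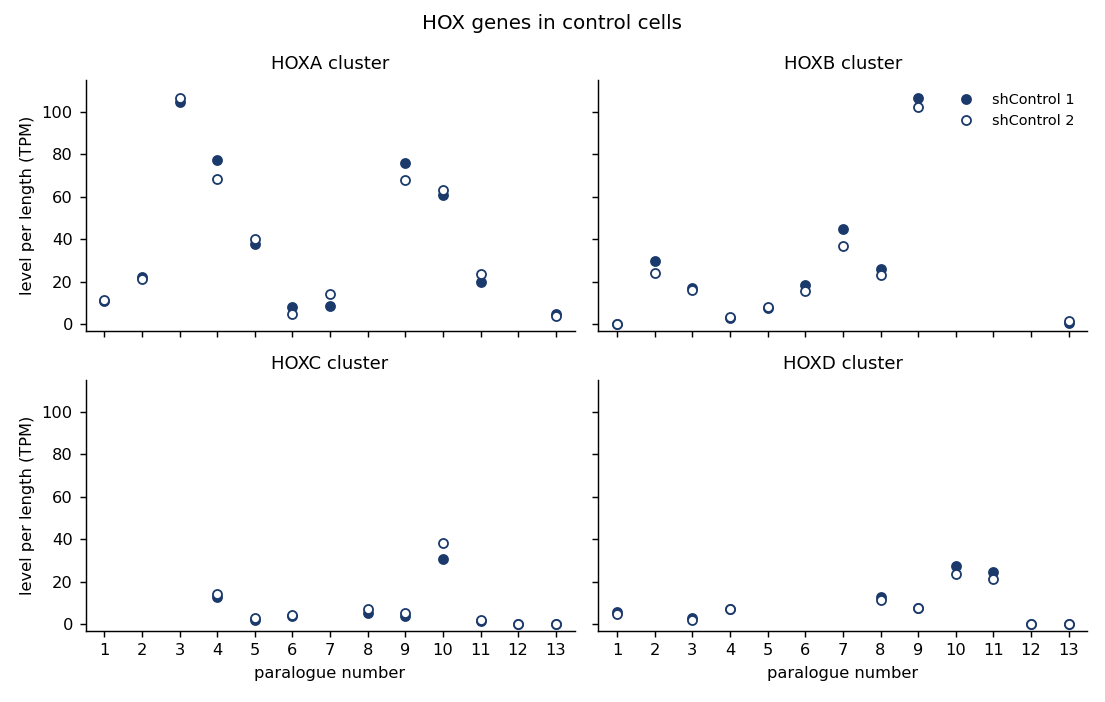
TPM (linear axis from 0) of HOX genes in both control libraries, by cluster and paralogue number. HOXA3 at 105 TPM and HOXB9 at 104 TPM stand out, and HOXB1, HOXC12, HOXC13, HOXD12 and HOXD13 lie at 0.

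Of 20 named noncoding RNAs 15 were expressed. SNHG5 and NORAD led with 252 ± 4.2 and 148 ± 2.8 TPM, GAS5 had 147 ± 0.59 and MALAT1 124 ± 11. MEG3 had no counts and H19 0 and 2 counts. GAS5, which hosts small nucleolar RNAs, had 125 and 128 CPM against 30.1 to 33.7 (2.00 ± 0.06, SE; edgeR adjusted p = 2.7e-13), and MALAT1 had 273 and 246 against 487 to 552. Of 16 cancer-testis genes only PRAME (11.5 and 12.8 CPM) and MAGEA3 (10.4 and 11.3) were expressed, and 10 had no counts.

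Silent genes lay in runs. Neighbouring protein-coding genes with 3 or fewer counts over both control libraries formed 44 runs of 10 genes or more, and the longest were gene families of other tissues. On chromosome 11 (48216810 to 57237314) 66 genes from OR4B1 to APLNR had 2 counts in all, and 57 of them encode olfactory receptors. The run is flanked by PTPRJ at 126 CPM and TNKS1BP1 at 123 CPM. On chromosome 1 47 genes from CRNN to S100A7, 18 of them late cornified envelope genes of skin, ended at S100A6, which had 683 CPM.

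The run on chromosome 21 from GRIK1 to TIAM1 held 37 genes, 33 of them keratin-associated proteins of hair, between BACH1 at 48.8 CPM and SOD1 at 137 CPM. A run of 30 genes on chromosome 1 from AADACL4 to LRRC38 held 22 genes of the PRAME family, between DHRS3 at 75.5 and PDPN at 7.80 CPM. The run from DEFA6 to USP17L3 held 39 genes, 18 of them defensins, on chromosome 8. No gene in these 5 runs had more than 3 counts over the 4 hairpin libraries. Each family is tissue-restricted by what is known of it, and the flanking genes on both sides were expressed in 3 of the 5 runs.

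Silent and expressed genes differed in the CpG content of their promoters. RefSeq gave a sequence for 15140 protein-coding genes, and the median number of CG dinucleotides in the 250 bases before the start was 21 for expressed genes, 9 for scarce genes and 5 for genes without counts. A promoter was called CpG-rich at a GC content of 55% or more and an observed to expected CpG ratio of 0.6 or more. By this measure 73.9% of 9596 expressed, 36.4% of 2086 scarce and 24.3% of 3458 silent promoters were CpG-rich. Genes of one family share promoter sequence and are not independent, so this is a description.

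Among the 100 listed protein-coding genes without counts 63 had a promoter entry and 27 (42.9%) were CpG-rich, against 24.3% of all silent promoters. They include LRP2, FBP1, IRX1, IRX2, EMX2, SIX2, TFCP2L1, KIT, RET, FLT1, HIF3A, TWIST2 and CDKN2B. The promoters of LRP2 and CDKN2B are shown beside that of PTPRC, a leukocyte gene whose promoter is poor in CpG, because the 3 genes share a count of 0 in all 6 libraries. They hold 21, 18 and 1 CG in 250 bases, in capitals.
LRP2, chr2:169362535-169362784, minus strand: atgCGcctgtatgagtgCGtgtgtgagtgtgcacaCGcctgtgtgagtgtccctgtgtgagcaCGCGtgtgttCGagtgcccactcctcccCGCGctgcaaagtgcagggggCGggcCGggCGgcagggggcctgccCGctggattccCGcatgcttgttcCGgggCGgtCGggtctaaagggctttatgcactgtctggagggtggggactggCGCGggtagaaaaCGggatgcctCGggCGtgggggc
CDKN2B, chr9:22009306-22009555, minus strand: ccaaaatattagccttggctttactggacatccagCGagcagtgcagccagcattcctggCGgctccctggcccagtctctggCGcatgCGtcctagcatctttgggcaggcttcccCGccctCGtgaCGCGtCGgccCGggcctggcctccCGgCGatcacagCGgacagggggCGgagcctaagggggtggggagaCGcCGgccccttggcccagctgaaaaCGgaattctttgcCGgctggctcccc
PTPRC, chr1:198638790-198639039, plus strand: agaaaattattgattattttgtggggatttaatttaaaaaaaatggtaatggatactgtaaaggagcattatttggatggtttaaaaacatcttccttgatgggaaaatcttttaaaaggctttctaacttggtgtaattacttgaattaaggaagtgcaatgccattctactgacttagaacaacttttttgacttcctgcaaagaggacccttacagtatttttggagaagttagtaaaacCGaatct
The GC content of these windows was 66.8%, 66.4% and 31.2%. All 3 genes lie under the same limit of 0.0642 CPM.

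The precision of these levels depended on the level and on overlap between genes. The median absolute log2 difference between the 2 control libraries was 0.03 at 1000 CPM or more, 0.04 between 100 and 1000, 0.09 between 10 and 100 and 0.24 between 1 and 10. The counts of the 2 control libraries differed by more than independent counts would, with 6.61% of 15727 genes past a chi-square p of 0.001, against 0.1% by chance. Which tool made the counts is not given, so both mates of a read pair may have been counted, which would widen this spread and was not tested. Of 9246 protein-coding genes at 10 CPM or more 52 lay over 1.5-fold apart, and 37 of those share their strand with an overlapping gene (3.82% of such genes, against 0.181% of the rest). None of the 328 listed genes at that level lay over 1.5-fold apart.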

How the data were processed

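RNA of 786-O cells was sequenced as paired-end libraries with an Abclonal kit, per the labels' protocols. The authors deposited raw read counts per gene, on hg38. FastQC 0.11.9, Trim Galore 0.6.7, HISAT2 2.2.1 and StringTie 2.2.1 are named per the submitters' processing notes. Which tool made the counts, the annotation release and the strand setting are not given. Without strand, reads of a gene and of a gene on the opposite strand cannot be told apart.

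Counts were analysed in R 4.3.3 and Python 3.11.15 (pandas 2.3.3, scipy 1.17.1). CPM used library sizes scaled by TMM (edgeR 4.0.16). TPM used merged exon lengths of GENCODE 29, which 58337 of 60649 genes (96.2%) matched by identifier. The control libraries were set against the mean of both hairpins with edgeR's quasi-likelihood test on all 6 libraries, and p-values were adjusted by Benjamini and Hochberg over all 16039 genes that passed its filter on low counts. DESeq2 1.42.0, other scalings and filters, a replicate block and omission of each library were tried, and the edgeR step was tested on simulated data. The main test did not pair samples by replicate number.

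Genes named were members of fixed lists, the 30 genes highest by TPM, genes near CDKN2A, the ends of silent runs with their flanking genes, and LINC02068. Members and lists were chosen with earlier results of these data known. Chromosome Y genes and the X inactivation transcript were left out. Some other list members are not reported here and are neither named nor plotted, while counts over a list include them. Promoter sequences came from RefSeq (GRCh38.p14) and were available for 15140 of 19816 protein-coding genes.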

Additional observations from a re-analysis of the deposited data

How the results depend on the processing

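The expressed and silent classes hardly depended on scaling. The 13455 expressed genes were 13455 with RLE factors, 13559 with total counts, 13480 without mitochondrial and ribosomal RNA genes and 14940 at 10 counts or more, and 13795 to 13878 with only 1 control library. The 34596 genes without counts became 39452 at 3 or fewer counts and 36567 to 38069 with only 1 control library. The share of counts in the 100 most abundant genes moved from 20.1% to 19.3% without mitochondrial and ribosomal RNA genes and was 20.03% to 20.16% in the single libraries. Of the 30 leading genes by TPM 18 were also among the 30 leading genes by CPM, 26 with the longest transcript as length, and 30 to 30 with only 1 control library.

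The 9223 calls against the hairpins (4640 higher, 4583 lower) were 8161 with DESeq2, and 7557 to 9020 without 1 library (3653 to 4543 higher, 3814 to 4601 lower), where a group left with 1 library takes its spread from the others. Total counts as the scaling moved the median of all genes from 0.03 to 0.18. Among named genes called with TMM, the difference then turned positive for CCN1 (0.0756), EEF2 (0.0133), HIF1A (0.0680), PAX8 (0.0570) and PLK1 (0.0160). Of these only CCN1 was then called, as higher in control cells (edgeR adjusted p = 0.0078). Some named genes without a call, such as CA9 and CSF1, changed sign too. With the replicate number as a block 9170 genes were called. Same-numbered samples did not deviate together over the tested genes (correlations -0.00123, 0.0107 and -0.0290). The labels do not say how replicates were made, so these correlations cannot tell whether samples were paired. Of 328 calls among named genes 6 were lost with the block, 16 with DESeq2, 33 with total counts (EEF2, HIF1A, PAX8 and PLK1 among them) and 54 without at least 1 library. With 2 libraries a group, small differences and levels near 1 CPM are the least certain.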
